A study of Mus musculus with 2 samples.

Results

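The genes described here are 10 members of the interleukin-1 and interleukin-18 systems, taken by symbol from the 32285 genes of the deposited matrices: the agonists Il1a and Il1b, the antagonist Il1rn, the receptor chains Il1r1 and Il1rap, the decoy receptor Il1r2, the sensor Nlrp3 and its protease Casp1, and the cytokine Il18 with its receptor chain Il18r1. They were measured by droplet 5′ single-cell RNA-seq in leukocytes from mouse hepatocellular carcinoma. Tumours of mice labelled MYC-ON were dissociated, live cells that stained for the pan-leukocyte protein CD45 were sorted, and 1 library was made from mice given DMSO by gavage and 1 from mice given the agent labelled STK. MYC-ON is thus shared by both groups, and the label names no promoter or clone for it. The sources used here do not give the number, age or sex of the animals in either library, nor what the letters STK stand for. With 1 library per group there is no test between treatments. All intervals below are exact 95% intervals that cover counting error only, and none covers the difference between animals.

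Interleukin-1 is the prototype of a cytokine family that raises fever and recruits neutrophils. Il1b encodes a precursor without a secretion signal that the protease caspase-1 cuts inside inflammasomes, which sensors such as NLRP3 assemble after danger signals; Il1a encodes a related agonist that is active without that cut and is often released by damaged cells. Both bind IL1R1, which then pairs with the accessory chain IL1RAP and signals through MYD88, whereas IL-1 receptor antagonist (Il1rn) occupies IL1R1 without signalling and IL1R2 binds the agonists but lacks the signalling domain. IL-18 is matured by the same protease and acts on lymphocytes, above all NK cells and T cells, through IL18R1. In liver tumours these genes are studied as a link between myeloid inflammation and lymphocyte function.

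The start-site sequences of 4 of these genes are shown because they carry or lack the elements most often named for inducible cytokine genes. All 10 genes matched the RefSeq promoter table (build GRCm38.p6), with 16 start sites in all, and the 250 bases before a start were searched on both strands. The motifs were NF-kB as GGG, any 2 bases and TTTCC, and in a wider form as GGG, any 5 bases and CC, which includes the first, AP-1 as TGANTCA, C/EBP as TTGCNNAA, CRE as TGACGTCA, PU.1 as GAGGAAGT and the TATA box as TATAAA. Of 32536 mouse promoter windows of the same length, 1.40% held the first NF-kB form, 46.0% the wider one, 6.73% AP-1, 9.57% C/EBP, 1.56% CRE, 2.45% PU.1 and 12.3% a TATA box. Capitals mark matches to the NF-kB, AP-1, C/EBP or CRE letters, and TATA boxes stay in lower case. Il1a and Il1b lie next to each other on the minus strand of chromosome 2, and their windows are chr2:129309973-129310222 and chr2:129371140-129371389. Il1r2 has its RefSeq start inside the gene span of the Ensembl model, and its window is chr1:40085843-40086092 on the plus strand. Casp1 has the window chr9:5298267-5298516 on the plus strand.
Il1a: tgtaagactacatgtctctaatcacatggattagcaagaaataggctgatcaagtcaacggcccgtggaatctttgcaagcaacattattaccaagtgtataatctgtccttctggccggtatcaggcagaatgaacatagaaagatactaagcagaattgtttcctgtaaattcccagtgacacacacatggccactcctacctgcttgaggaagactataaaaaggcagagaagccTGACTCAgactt
Il1b: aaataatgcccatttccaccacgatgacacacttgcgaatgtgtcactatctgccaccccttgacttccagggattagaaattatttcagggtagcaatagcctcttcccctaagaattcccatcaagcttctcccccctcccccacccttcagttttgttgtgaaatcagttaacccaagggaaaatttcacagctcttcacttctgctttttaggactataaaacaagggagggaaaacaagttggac
Il1r2: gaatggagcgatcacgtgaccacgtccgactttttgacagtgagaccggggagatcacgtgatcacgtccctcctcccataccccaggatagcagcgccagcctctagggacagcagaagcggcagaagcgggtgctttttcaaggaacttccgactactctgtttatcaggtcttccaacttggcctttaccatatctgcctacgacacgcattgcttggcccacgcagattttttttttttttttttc
Casp1: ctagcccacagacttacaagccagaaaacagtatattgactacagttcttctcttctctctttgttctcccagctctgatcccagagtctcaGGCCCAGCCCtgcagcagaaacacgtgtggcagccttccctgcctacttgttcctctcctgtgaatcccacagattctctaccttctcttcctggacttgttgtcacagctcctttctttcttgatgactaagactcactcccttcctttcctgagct
A TATA box ends 27 bases before the Il1a start and 26 bases before the Il1b start, and the Il1a window also holds an AP-1 match whose last base is 6 bases before the start. None of the 7 motifs was found in the Il1r2 window, and the Casp1 window held only the wide NF-kB form, on the minus strand from 158 to 149 bases before the start. Among all 16 windows, the narrower NF-kB form was found only at the third Il1rn start, 51 to 42 bases before it. A match in these windows is a run of letters and was not tested as a binding site.

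After barcodes with fewer than 500 UMIs, fewer than 250 genes or more than 10% mitochondrial UMIs were left out, 11152 cells remained under DMSO and 10846 under STK, with medians of 4472 and 4931 UMIs. Cells were named from marker genes, cell by cell: 91.1% and 92.0% passed a gate, and 15 classes held at least 100 cells in each library. Each name below means cells like that type by their markers. Several features set the libraries apart before any member is considered. Of the cells that could be sexed by Xist or Y-linked transcripts, 12.6% were female under DMSO and 65.1% under STK. Some heat shock transcripts were far lower in the STK library in most classes. CPM is the depth-scaled count, a gene's UMIs over all UMIs of the class. Hspa1a, a chaperone gene chosen after its values were seen, was at 858 and 68.2 CPM in macrophages. It was at 1016 and 34.7 CPM in classical monocytes and 816 and 21.8 CPM in cDC2. In macrophages Hspa1b, Hsph1 and Dnajb1 were also at least 1.5 times lower, but Hspa8, Dnaja1, Hsp90aa1, Hspe1 and Hspd1 were not. Of these genes, only Hspa1b was that much lower in the hepatocyte or tumour gate. The libraries shared 203 cell barcodes. Although cells were sorted for CD45, 1865 and 1392 cells passed the gate for hepatocytes or tumour cells. Their values are used below as a guide to the level of stray leukocyte transcript. These cells were the deepest, at medians of 16497 and 15361 UMIs, against 7624 and 8674 in cDC2 and 1310 and 1330 in neutrophils. The same stray UMIs per cell give a lower CPM and a lower thinned share in deeper cells. For shallower classes this level can therefore be too low. How far sex, heat shock transcripts or free RNA take part in any difference below was not tested.

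Members were more often higher than lower in the STK library. Of the 150 pairs of a member and a class, 126 had at least 10 UMIs over both libraries and 24 had fewer. Among the 126 pairs, 61 were at least 1.5 times higher in the STK library, 15 at least 1.5 times lower and 50 between, with a median ratio of 1.46. Over 160137 pairs of any gene and class, 10.2% were that much higher and 11.6% that much lower, with a median ratio of 0.983. With the interval of the ratio also above equal, 44 member pairs were higher, where 4.52% of all pairs were. With the interval below equal, 10 member pairs were lower, where 5.0% of all pairs were. The higher pairs were unevenly spread over the genes: Il1r2 was higher in all 15 of its classes, Il1b in 10 of 15, Nlrp3 in 10 of 14, Il1a in 8 of 9 and Il1rn in 7 of 14, while Casp1 was higher in 1 of 15 and Il18 in 0 of 14. By class, 6 of 10 members were higher and 0 lower in classical monocytes, where 7.76% of all genes were higher and 10.9% lower. In macrophages 5 were higher and 1 lower of 10 (8.11% and 10.6% of all genes). In neutrophils 5 were higher and 1 lower of 9 (16.6% and 15.3%), and in cDC2, the conventional dendritic cells that present to CD4 T cells, 6 were higher and 1 lower of 10 (9.05% and 13.7%). In CD8 T cells 1 was higher and 3 lower of 9 (7.73% and 10.4%), and in NK cells 1 was higher and 4 lower of 8 (7.76% and 10.5%). The hepatocyte or tumour gate also had 5 higher and 0 lower of 10 (11.2% and 6.12%), each of the 5 at 34.8 CPM or less. Levels near those of this gate are read below as background. Il1rap is not read so, because the gate held 37.2% and 21.9% of its gated UMIs. These parts are not enrichment: the gate held 32647816 of 78065924 kept UMIs under DMSO and 24991776 of 79681844 under STK.

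**Figure D1:**
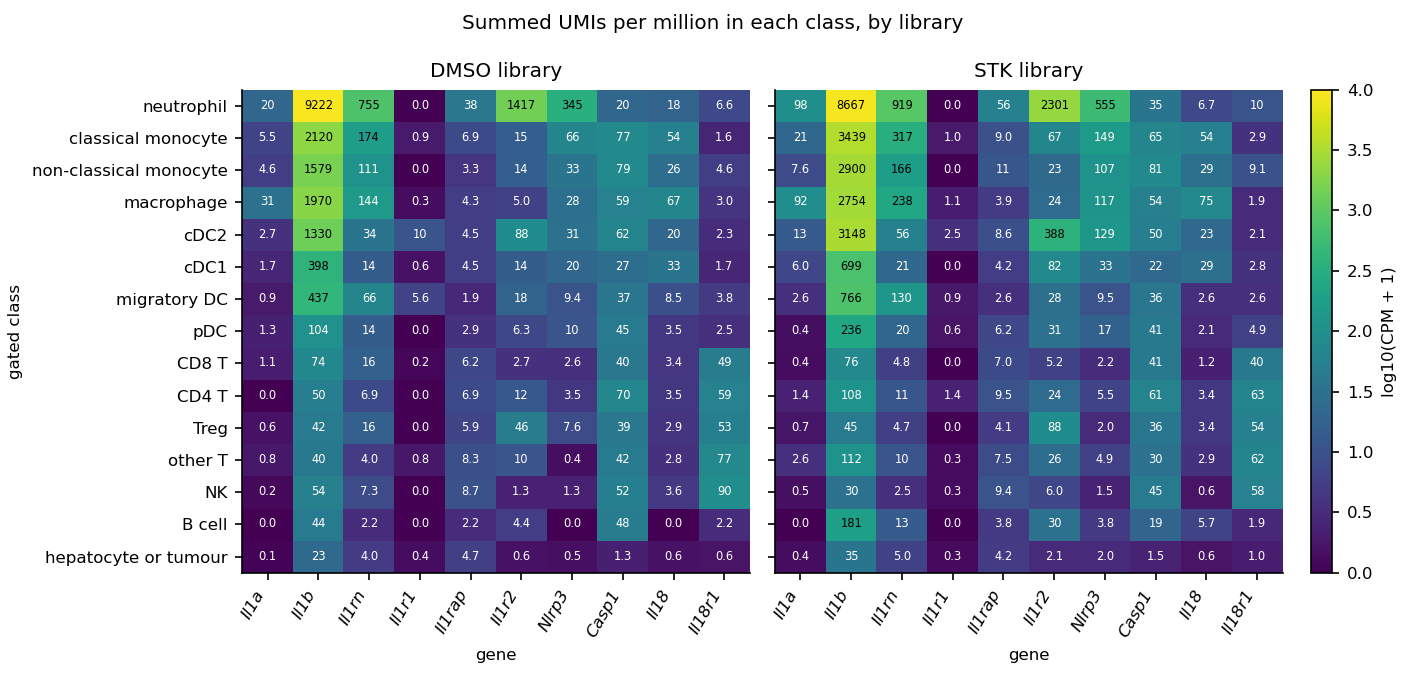
Level of each of the 10 genes (columns, CPM of summed UMIs, colour on a log10 scale of CPM + 1) in 15 gated classes (rows) of the DMSO library (left) and the STK library (right). By CPM, Il1b, Il1rn, Il1r2 and Nlrp3 are highest in neutrophils in both libraries, whose cells were shallow (medians of 1310 and 1330 UMIs). Casp1 is spread over most leukocyte classes.

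Il1b (ENSMUSG00000027398, chromosome 2 from 129364570 to 129371139, minus strand, GRCm38) was a neutrophil, monocyte and macrophage transcript. In the DMSO library its order was neutrophils at 9222 CPM, classical monocytes at 2120, macrophages at 1970, non-classical monocytes at 1579 and cDC2 at 1330. Migratory dendritic cells at 437 and cDC1 at 398 came next, with overlapping counting intervals. Every lymphocyte class among the 15 compared stood between 40.1 and 73.6 CPM, against 23.1 CPM in the hepatocyte or tumour gate. In the STK library neutrophils were again first at 8667 CPM, but cDC2 at 3148 now stood between classical monocytes at 3439 and non-classical monocytes at 2900. The interval of the last overlapped that of macrophages at 2754. These orders are by CPM and not by UMIs per cell, and neutrophils were shallow (medians of 1310 and 1330 UMIs). Under DMSO 390 neutrophils held 5616 Il1b UMIs and 275 cDC2 held 2951. Under STK 333 neutrophils held 5141 and 349 cDC2 held 10266.

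By CPM, cDC2, monocytes and macrophages thus stood closer to neutrophils in the STK library. Il1b was 2.37 times higher in cDC2 (2.27 to 2.47), 1.84 times in non-classical monocytes, 1.62 times in classical monocytes (1.59 to 1.66) and 1.40 times in macrophages (1.37 to 1.43), below the 1.5-fold mark, whereas the ratio in neutrophils was 0.94 (0.905 to 0.976). In cDC2, classical monocytes and macrophages more cells carried the transcript at equal depth. With each cell thinned to 1000 UMIs, cells with an Il1b UMI made up 46.9% (40.9 to 53.0) of cDC2 under DMSO and 76.2% (71.4 to 80.6) under STK. In classical monocytes the share was 56.0% (53.4 to 58.5) and 75.3% (72.5 to 77.9). In macrophages it was 56.3% (53.1 to 59.5) and 65.0% (61.9 to 68.0). Neutrophils were nearly all positive, at 91.9% and 94.3%, and the hepatocyte or tumour gate was at 2.09% and 2.83%. Without thinning the shares were 60.4% and 89.1% in cDC2, 68.2% and 78.3% in macrophages and 5.95% and 9.48% in the hepatocyte or tumour gate, whose cells were deeper (median 16497 and 15361 UMIs, against 7624 and 8674 in cDC2 and 5762 and 7852 in macrophages). Before thinning, a positive macrophage held a mean of 16.8 Il1b UMIs under DMSO and 28.6 under STK, and a positive cDC2 held 17.8 and 33.0. Both classes were deeper under STK, and these means were not matched for depth. The Il1b in macrophages was not the product of a few cells: the 10% of cells with the most UMIs held 41.0% of it under DMSO and 34.4% under STK.

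Within macrophages, the difference lay outside the cells marked by Spp1 or Arg1, genes of tumour-associated macrophages that handle matrix and arginine. In the 39 and 109 cells with these markers Il1b was at 1664 and 1719 CPM, a ratio of 1.03. In the other 992 and 903 macrophages it was at 1986 and 2921 CPM, a ratio of 1.47. The source of the Il1b pool changed with these levels and with cell numbers. Dendritic cells held 10.6% of all gated Il1b UMIs under DMSO and 20.9% under STK, neutrophils 13.3% and 7.56%, and monocytes, macrophages and Kupffer cells together 72.0% and 67.9%.

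In lymphocytes Il1b could not be told apart from stray transcript, although some classes stood above the 34.8 CPM of the hepatocyte or tumour gate under STK. B cells went from 43.5 to 181 CPM (20 and 95 UMIs), and 3 STK cells held 84.2% of it. Other T cells went from 40.1 to 112 CPM, with 60.05% of the STK UMIs in 9 cells. T cells with gamma-delta or IL-17 markers had 1 and 61 UMIs, the latter at 163 CPM. In CD8 T cells it was at 73.6 and 76.0 CPM, and the 13 and 17 CD8 T cells with the most UMIs held 68.9% and 73.1% of it. In CD4 T cells it was 2.15 times higher in the STK library, but 0.663 times without called doublets. In NK cells it was 0.562 times, but 1.41 times under a stricter gate and 1.64 times when clusters replaced gates. In pDC, which went from 105 to 236 CPM, the summed level of 7 neutrophil markers went from 206 to 508 CPM, whereas in cDC2 it was 8.6 and 8.9 CPM, with 1 and 3 of the 7 at 0. The genes whose level over 30 points (15 classes in both libraries) was most like that of Il1b among 4038 genes were Clec4n (r = 0.964), a C-type lectin of myeloid cells, Nfe2l2 (r = 0.959), which encodes the oxidative stress factor NRF2, and Ccl6 (r = 0.955), a myeloid chemokine. These points share 2 libraries and their depths, so the r values are descriptive.

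**Figure D2:**
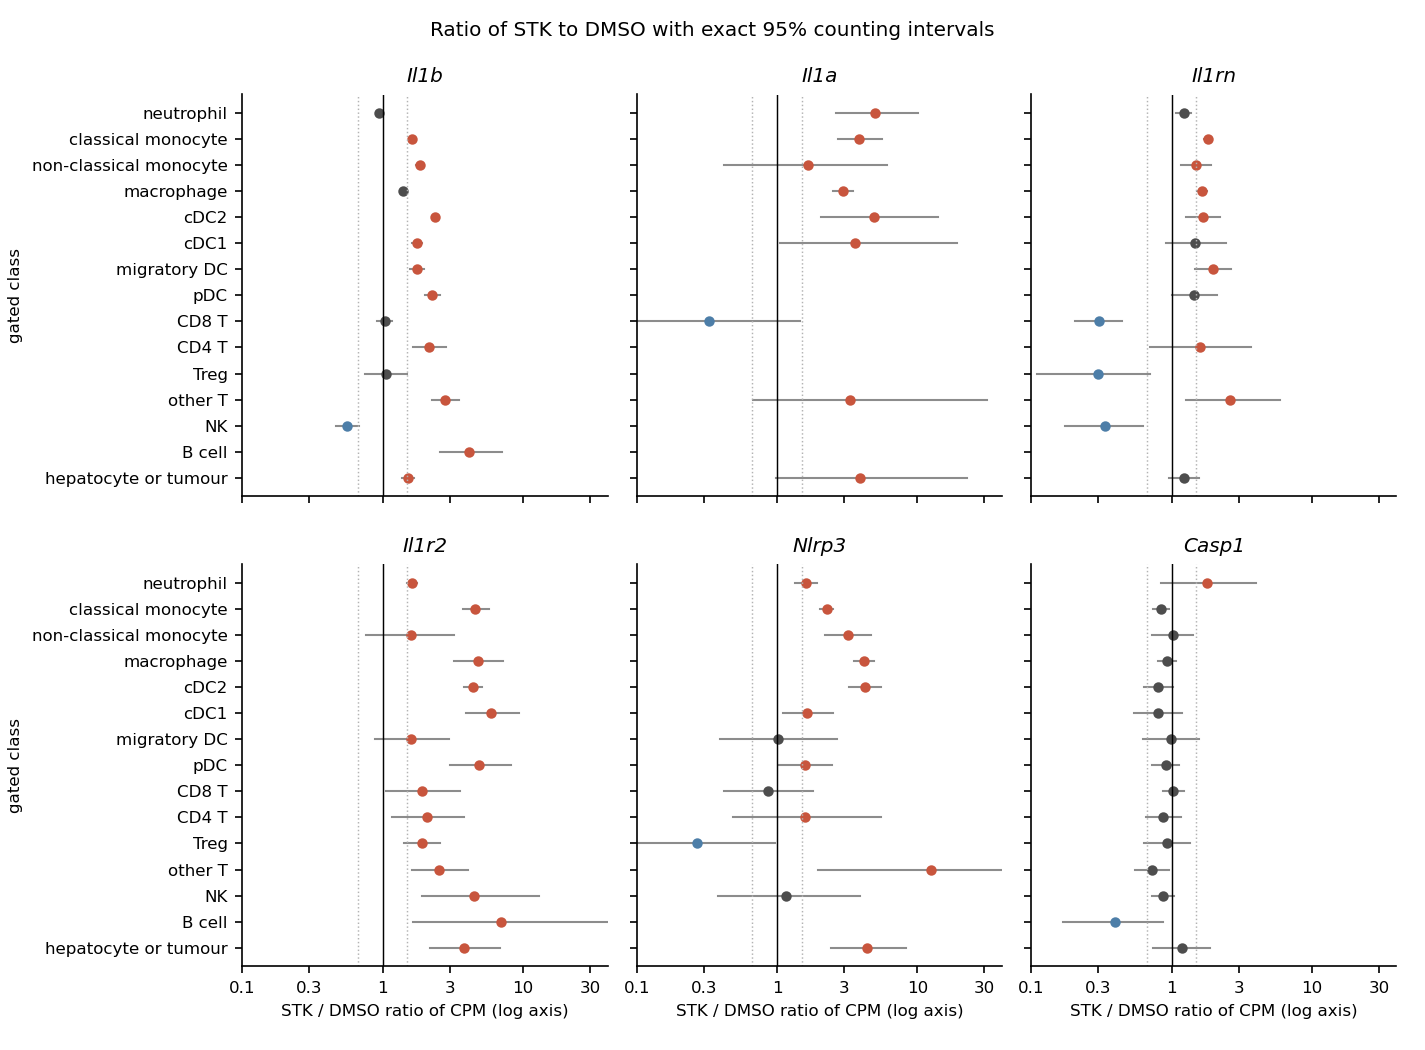
Ratio of STK to DMSO CPM (log axis) for 6 of the genes in each gated class, with exact 95% counting intervals as grey bars and dotted lines at 1.5-fold either way; red and blue points lie past them, and bars are clipped at the axis ends. The Il1r2 points lie to the right of 1.5 in all 15 classes and Casp1 near 1 in most. The Il1r2 bars of non-classical monocytes and migratory dendritic cells reach 1.

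Il1a (ENSMUSG00000027399, chromosome 2 from 129299610 to 129309972, minus strand) was scarcer and centred on macrophages, which held 67.2% and 71.2% of its gated UMIs. There it was at 31.0 CPM from 186 UMIs under DMSO and at 91.8 CPM from 756 UMIs under STK, 2.96 times higher (2.52 to 3.49). The ratio was 4.96 (2.64 to 10.2) in neutrophils, from 12 and 58 UMIs, 3.85 in classical monocytes, from 42 and 132 UMIs, and 4.88 in cDC2, from 6 and 43 UMIs. Il1a therefore differed more than Il1b in each of these classes by the value of the ratio, though the count in the last is small. After thinning, 3.01% (2.02 to 4.29) of macrophages and 6.89% (5.38 to 8.66) carried a UMI (11.2% and 25.7% unthinned), against 0.0597% and 0.0808% in the hepatocyte or tumour gate. In neutrophils the Il1b ratio stood just under 1 while the Il1a ratio stood near 5. In classical monocytes the 15 and 10 cells with the most Il1a held 69.1% and 42.4% of it.

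Il1rn (ENSMUSG00000026981, chromosome 2 from 24336853 to 24351494, plus strand), the antagonist, was, like Il1b, highest in neutrophils and then in classical monocytes in both libraries, while cDC2 stood lower in its order. It was at 755 and 919 CPM in neutrophils (ratio 1.22), 174 and 317 in classical monocytes (1.82), 144 and 238 in macrophages (1.65), 65.8 and 130 in migratory dendritic cells (1.97) and 33.8 and 56.4 in cDC2 (1.67). The agonist and the antagonist were therefore both higher in monocytes, macrophages and cDC2 of the STK library. For every 100 Il1b UMIs, macrophages held 7.33 Il1rn UMIs under DMSO and 8.65 under STK, classical monocytes 8.20 and 9.22, neutrophils 8.19 and 10.6, and migratory dendritic cells 15.1 and 16.9. The balance was lower under STK in cDC2 (2.54, 1.99 to 3.20, against 1.79, 1.54 to 2.07), non-classical monocytes (7.004 and 5.73), cDC1 (3.50 and 2.93) and pDC (13.3 and 8.53), and the intervals of both libraries overlapped in each of these 4 classes. After thinning, the share of macrophages with an Il1rn UMI was 9.03% (7.29 to 11.0) and 15.1% (12.9 to 17.5), against 0.657% and 0.566% in the hepatocyte or tumour gate. Macrophages marked by Spp1 or Arg1 held more Il1rn than the class as a whole, at 338 and 444 CPM. In CD8 T cells, Treg and NK cells Il1rn was lower in the STK library, with ratios of 0.303, 0.30 and 0.336, at levels of 15.8 CPM or less that compare with 4.04 and 4.96 CPM in the hepatocyte or tumour gate. With clusters in place of gates the CD8 T cell ratio was 2.15.

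The signalling receptor was barely captured in these leukocytes. Il1r1 (ENSMUSG00000026072, chromosome 1 from 40225080 to 40317257, plus strand) had 64 and 52 UMIs in all gated cells together. Its level was 35.9 and 32.0 CPM in T cells with gamma-delta or IL-17 markers, from 7 and 12 UMIs in 40 and 82 cells. In cDC2 it was at 10.4 CPM from 23 UMIs under DMSO and at 2.45 CPM from 8 UMIs under STK, a ratio of 0.237 (0.0915 to 0.548). In neutrophils it had 0 UMIs in either library. Il1rap (ENSMUSG00000022514, chromosome 16 from 26581704 to 26730117, plus strand), the accessory chain, was at 37.8 and 55.6 CPM in neutrophils, a ratio of 1.47 from 23 and 33 UMIs. It had a larger part of its gated UMIs than any other member, 37.2% and 21.9%, in the hepatocyte or tumour gate, where its level was 4.69 and 4.16 CPM. That gate held a still larger part of all kept UMIs in each library.

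Il1r2 (ENSMUSG00000026073, chromosome 1 from 40074079 to 40125231, plus strand), the decoy receptor, was at least 1.5 times higher in each class by the value of the ratio. The interval reached equal in non-classical monocytes (1.588, 0.766 to 3.20) and migratory dendritic cells (1.595, 0.881 to 2.97). The B cell ratio rested on 2 and 16 UMIs. Under the stricter gate the ratio fell below equal in CD4 T and other T cells. Neutrophils were highest, at 1417 CPM from 863 UMIs under DMSO and 2301 CPM from 1365 UMIs under STK, a ratio of 1.62 (1.49 to 1.77). After them came cDC2, at 88.4 CPM from 196 UMIs and 388 CPM from 1265 UMIs, a ratio of 4.39 (3.78 to 5.13). Next came Treg, the regulatory T cells marked by Foxp3, at 46.3 CPM from 79 UMIs and 88.2 CPM from 130 UMIs, a ratio of 1.91 (1.43 to 2.55). These 3 classes did not overlap in their counting intervals in the DMSO library. In the STK library the Treg interval overlapped that of cDC1, whose Il1r2 went from 13.9 to 82.0 CPM, 5.90 times higher, or 2.25 times under the stricter gate. Classical monocytes went from 14.7 to 67.1 CPM (4.58 times) and macrophages from 5.01 to 23.8 CPM (4.75 times, 3.23 to 7.23). The hepatocyte or tumour gate itself went from 0.551 to 2.08 CPM, 3.77 times higher, so that classes at a few CPM, such as NK and CD8 T cells (1.33 and 2.72 CPM in the DMSO library), cannot be told apart from stray transcript.

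The share of positive cells gave the same picture at equal depth. After thinning, 63.4% (57.9 to 68.7) of neutrophils carried an Il1r2 UMI under DMSO and 83.4% (78.4 to 87.7) under STK. In cDC2 the share was 8.00% (5.08 to 11.9) and 24.6% (20.2 to 29.5), or 28.4% and 64.8% unthinned. In Treg it was 2.97% (1.37 to 5.56) and 5.33% (2.87 to 8.94), with overlapping intervals, against 0.179% and 0.243% in the hepatocyte or tumour gate. Treg and cDC2 differed in how much neutrophil transcript they held: the summed CPM of the 7 neutrophil markers was 8.6 and 8.9 in cDC2, and 82.6 and 19.7 in Treg, with 0 and 4 of the 7 at 0. Set against its ligand, Il1r2 made 6.64 and 12.3 UMIs per 100 of Il1b in cDC2, 15.4 and 26.6 in neutrophils and 0.254 and 0.864 in macrophages. Treg held 110 and 197 Il1r2 UMIs per 100 of Il1b, but on 72 and 66 Il1b UMIs, of which 4 and 3 cells held 70.8% and 80.3%. Il1b in Treg did not stand clear of stray transcript, so this value is not read as a balance. Of the UMIs of both IL-1 binding receptors in cDC2, 89.5% were the decoy under DMSO and 99.4% under STK. The place of origin of the decoy shifted accordingly: neutrophils held 59.3% of its gated UMIs under DMSO and 33.4% under STK, and cDC2 13.5% and 30.9%. The genes most like Il1r2 over the 30 points were Ifitm1 (r = 0.842), Fem1c (r = 0.808) and Csrnp1 (r = 0.802), less alike than the nearest genes of Il1b.

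**Figure D3:**
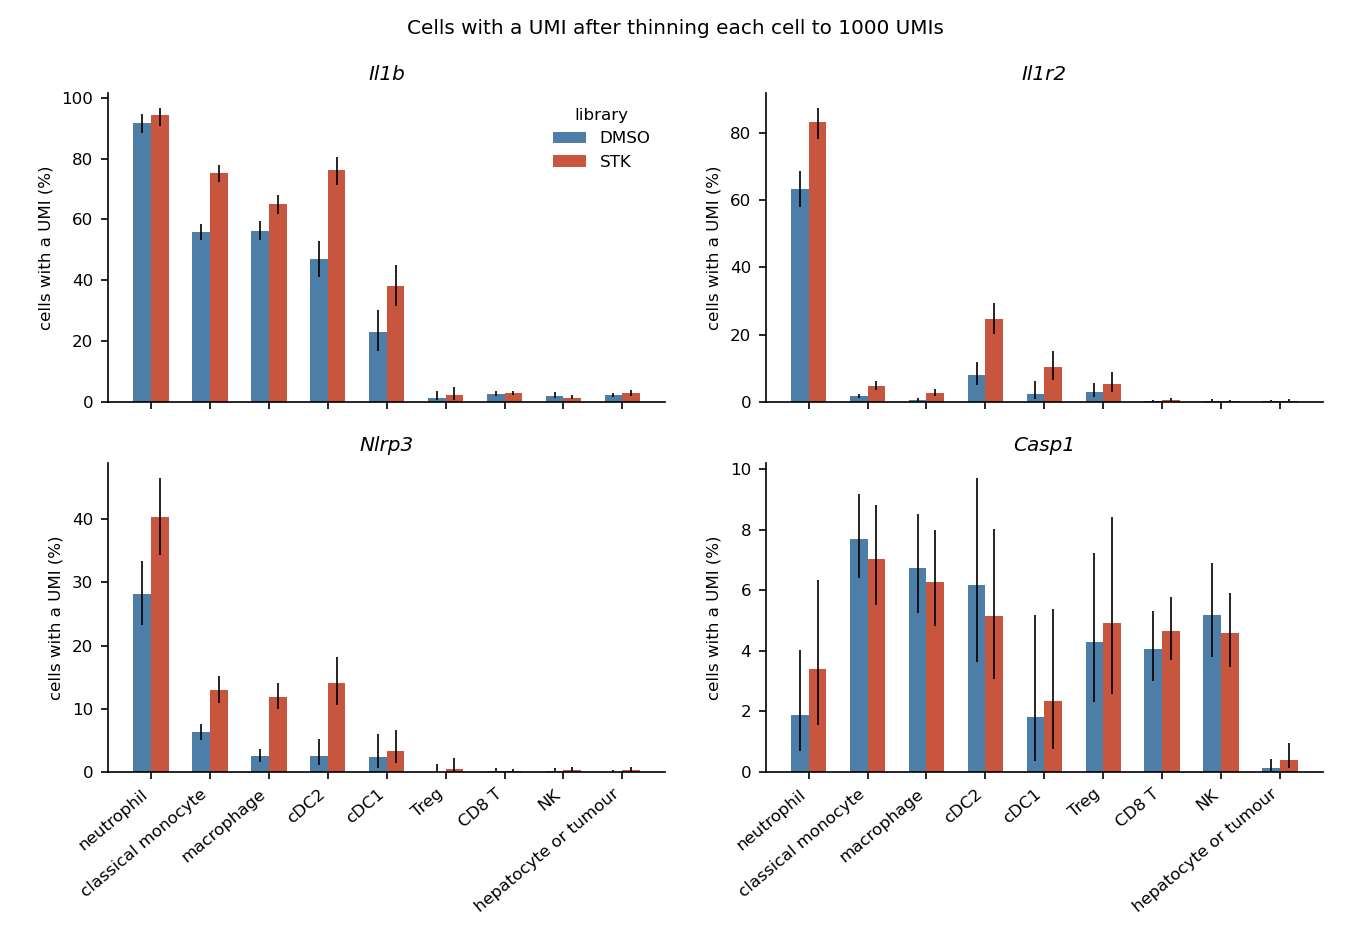
Share of cells with at least 1 UMI of Il1b, Il1r2, Nlrp3 or Casp1 after each cell was thinned to 1000 UMIs, in 9 gated classes of the DMSO (blue) and STK (red) libraries, with exact 95% binomial intervals as bars; each panel has its own scale. In cDC2 the Il1r2 share is 8.00% and 24.6% and the Nlrp3 share 2.55% and 14.0%, while the Casp1 intervals of the 2 libraries overlap in all 9 classes.

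Nlrp3 (ENSMUSG00000032691, chromosome 11 from 59541568 to 59566956, plus strand), the sensor whose transcription is the priming step of its inflammasome, was higher in every compared myeloid class except migratory dendritic cells. In pDC the ratio was 1.58 (1.04 to 2.45) on 33 and 77 UMIs, at 10.5 and 16.5 CPM. The neutrophil markers of pDC were higher under STK too, and stray transcript was not tested there. Macrophages went from 28.4 CPM (170 UMIs) to 117 CPM (967 UMIs), 4.14 times higher (3.51 to 4.90). In cDC2 it went from 30.7 to 129 CPM (4.22 times, 3.26 to 5.54), in non-classical monocytes from 33.4 to 107 (3.20 times), in classical monocytes from 66.1 to 149 (2.26 times) and in neutrophils, the highest class, from 345 to 555 (1.61 times). In the STK library the levels of classical monocytes, cDC2, macrophages and non-classical monocytes were close enough that each interval overlapped the next. Migratory dendritic cells were at 9.4 and 9.5 CPM. After thinning, 2.49% (1.60 to 3.68) and 11.9% (9.95 to 14.1) of macrophages carried an Nlrp3 UMI, or 12.2% and 42.0% unthinned, against 0.0597% and 0.243% in the hepatocyte or tumour gate. Macrophages with and without Spp1 or Arg1 were alike in this, at 34.9 and 119 CPM and at 28.0 and 117 CPM. Macrophages held 14.9% of gated Nlrp3 UMIs under DMSO and 31.9% under STK, and classical monocytes 44.3% and 30.6%.

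Casp1 (ENSMUSG00000025888, chromosome 9 from 5298517 to 5307265, plus strand), the protease downstream, did not share this pattern. It was at 76.8 and 64.8 CPM in classical monocytes (ratio 0.844), 58.6 and 54.3 in macrophages (0.927) and 62.2 and 49.99 in cDC2 (0.804). Lymphocytes held it too, at 51.5 and 44.8 CPM in NK cells and at a lower 39.5 and 40.6 CPM in CD8 T cells, against 1.29 and 1.52 in the hepatocyte or tumour gate. Most neighbours in its order of classes had overlapping intervals. In neutrophils the ratio was past 1.5, from 19.7 to 35.4 CPM, but on 12 and 21 UMIs. B cells were lower, from 47.9 to 19.0 CPM, a ratio of 0.397 (0.168 to 0.875) on 22 and 10 UMIs. The thinned share of macrophages with a Casp1 UMI was 6.74% (5.24 to 8.51) and 6.27% (4.83 to 7.98). For every 100 Casp1 UMIs, macrophages held 48.4 Nlrp3 UMIs under DMSO and 216 under STK, cDC2 49.3 and 259, classical monocytes 86.0 and 230, and neutrophils 1750 and 1567. Because capture differs between genes, these ratios compare libraries and classes and are not ratios of molecules.

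Il18 (ENSMUSG00000039217, chromosome 9 from 50554827 to 50581840, plus strand) is matured by the same protease, but its transcript did not follow Il1b. It was highest in macrophages, at 67.1 and 75.0 CPM (ratio 1.12, 0.985 to 1.27), then in classical monocytes at 53.8 in both libraries (ratio 0.9995). Next came cDC1 at 33.4 and 29.4 CPM, non-classical monocytes at 26.2 and 29.0 and cDC2 at 19.8 and 22.7, with neighbouring intervals overlapping. Monocytes, macrophages and Kupffer cells held 80.3% and 81.4% of its gated UMIs. The 5 classes with a ratio past 1.5 on the lower side all held few UMIs, such as NK cells with 16 and 4 and CD8 T cells with 21 and 10. The genes most like it over the 30 points were Tgfbi (r = 0.942), Tnfrsf21 (r = 0.94) and Slc31a2 (r = 0.927). Il18bp, which encodes the soluble binding protein that holds IL-18 inactive, was at 205 and 288 CPM in macrophages, a ratio of 1.40.

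Il18r1 (ENSMUSG00000026070, chromosome 1 from 40465552 to 40500854, plus strand) marked the lymphocyte side, where T cells and NK cells held 92.8% and 90.7% of its gated UMIs. Among the 15 compared classes NK cells had the highest value in the DMSO library, at 89.5 CPM, with an interval that overlapped that of other T cells at 76.7 CPM. Under STK they were at 58.0 CPM, and the intervals of CD4 T, other T and NK cells overlapped. The NK cell level had a ratio of 0.648 (0.562 to 0.748). The CD8 T cell ratio was 0.818, from 48.7 to 39.8 CPM. CD4 T cells were at 58.7 and 63.4 CPM, Treg at 52.7 and 54.3 and T cells with gamma-delta or IL-17 markers at 71.8 and 82.8. The lower level was found in the NK subsets that carry Ly49 receptors (80.4 and 50.7 CPM, ratio 0.630) and in Cd160 and Xcl1 positive NK cells without Ly49 (100 and 51.6 CPM, ratio 0.515), and less in the remaining NK cells (120 and 100 CPM, ratio 0.833). Among CD8 T cells, those with naive markers were at 73.6 and 51.0 CPM and cycling ones at 25.2 and 27.8. The thinned share of NK cells with an Il18r1 UMI was 10.0% (8.10 to 12.3) and 6.08% (4.79 to 7.58), or 33.6% and 24.2% unthinned, against 0.0597% and 0.243% in the hepatocyte or tumour gate. In male NK cells alone, however, the ratio was 1.15 (0.859 to 1.52), and in female ones 0.518, so that the lower level was not found in both sexes. Il18rap, the second receptor chain, was at 105 and 83.1 CPM in NK cells, a ratio of 0.794. The genes most like Il18r1 over the 30 points, Skap1 (r = 0.98), Sh2d1a (r = 0.977) and Prkcq (r = 0.972), encode signalling proteins of T cells and NK cells.

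**Figure D4:**
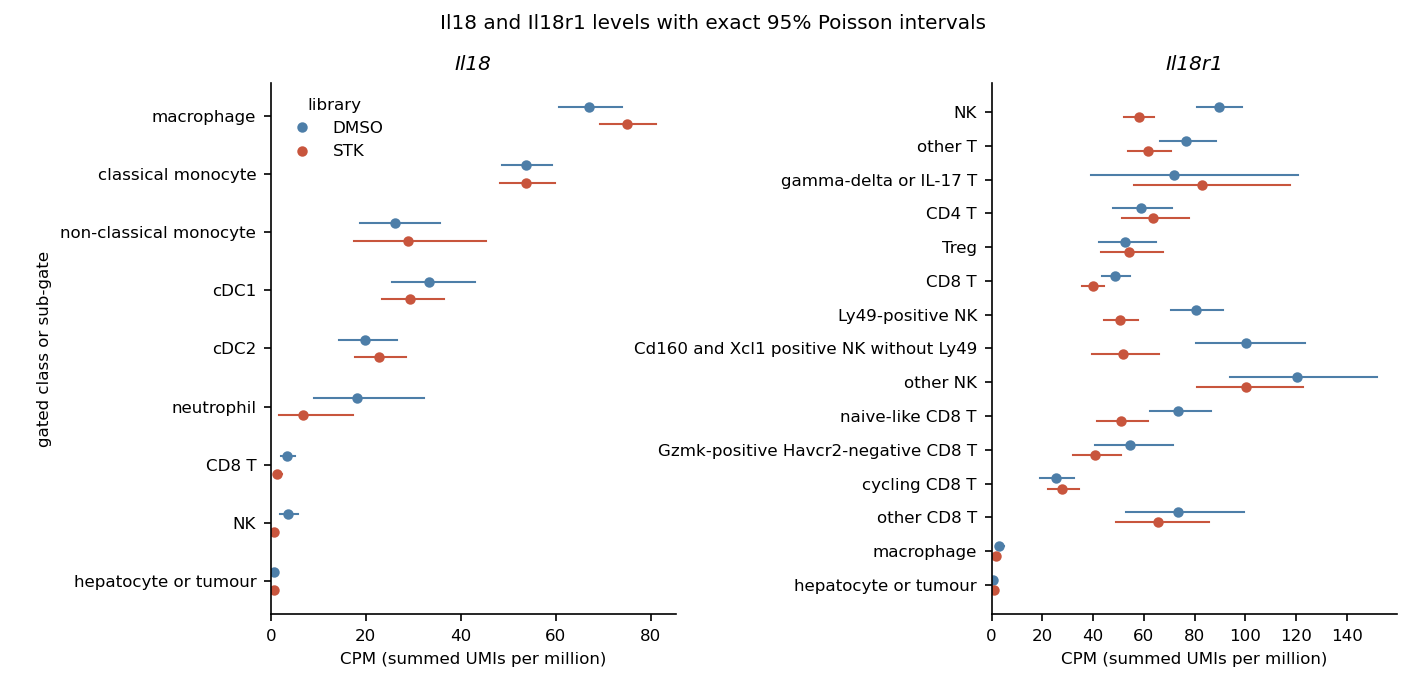
Levels of Il18 (left) and Il18r1 (right) in CPM with exact 95% Poisson intervals, in gated classes and, for Il18r1, in subsets of NK and CD8 T cells, for the DMSO (blue) and STK (red) libraries. Il18 intervals of the 2 libraries overlap in macrophages and classical monocytes, and Il18r1 in NK cells is at 89.5 and 58.0 CPM without overlap.

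Because the libraries differ in the sex of their cells, the comparison was repeated within each sex. Over all pairs with at least 10 UMIs and a UMI in both libraries, the ratio was above equal in 46 of 83 pairs in male cells and 35 of 58 in female cells. At least 1.5 times higher were 31 pairs in male cells, with 18 that much lower, and 26 in female cells, with 7 lower. The share over all genes within each sex is not given here, so these counts have no background beside them. Male cells carried the better count, since the DMSO library held only 32 female macrophages, 40 female classical monocytes, 5 female cDC2 and 3 female neutrophils. In male cells Il1r2 was at least 1.5 times higher in 10 of 11 classes and lower in migratory dendritic cells (ratio 0.354, from 16 and 2 UMIs), with ratios of 6.73 in macrophages, 5.90 in classical monocytes, 4.91 in cDC2, 2.76 in neutrophils and 1.71 in Treg. In female cells the Il1r2 ratio was 3.56 in macrophages, from 1 UMI under DMSO and 51 under STK. It was 1.495 in classical monocytes (9 and 92 UMIs) and 0.996 in cDC2 (21 and 426 UMIs). Nlrp3 in male cells was 4.16 times higher in macrophages, 3.64 in cDC2, 1.41 in classical monocytes and 1.23 in neutrophils. Female cells gave Nlrp3 ratios of 1.88, 2.62 and 2.32 in macrophages, cDC2 and classical monocytes. These rest on only 14, 3 and 17 UMIs of female DMSO cells. Il1b in male and female cells was 1.36 and 1.74 times higher in macrophages, 1.51 and 2.03 in classical monocytes and 2.56 and 2.12 in cDC2. Male and female cells of the same library also differed for some members. Male and female macrophages held Il1b at 1997 and 1551 CPM in the DMSO library and at 2707 and 2699 CPM in the STK library. Classical monocytes of the STK library held Il1r2 at 97.6 CPM in male and 53.6 CPM in female cells, Il1rn at 372 and 228 CPM and Nlrp3 at 105 and 157 CPM. In cDC2 of the DMSO library Il1r2 was at 83.4 CPM in male cells and 367 CPM in the 5 female cells.

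**Figure D5:**
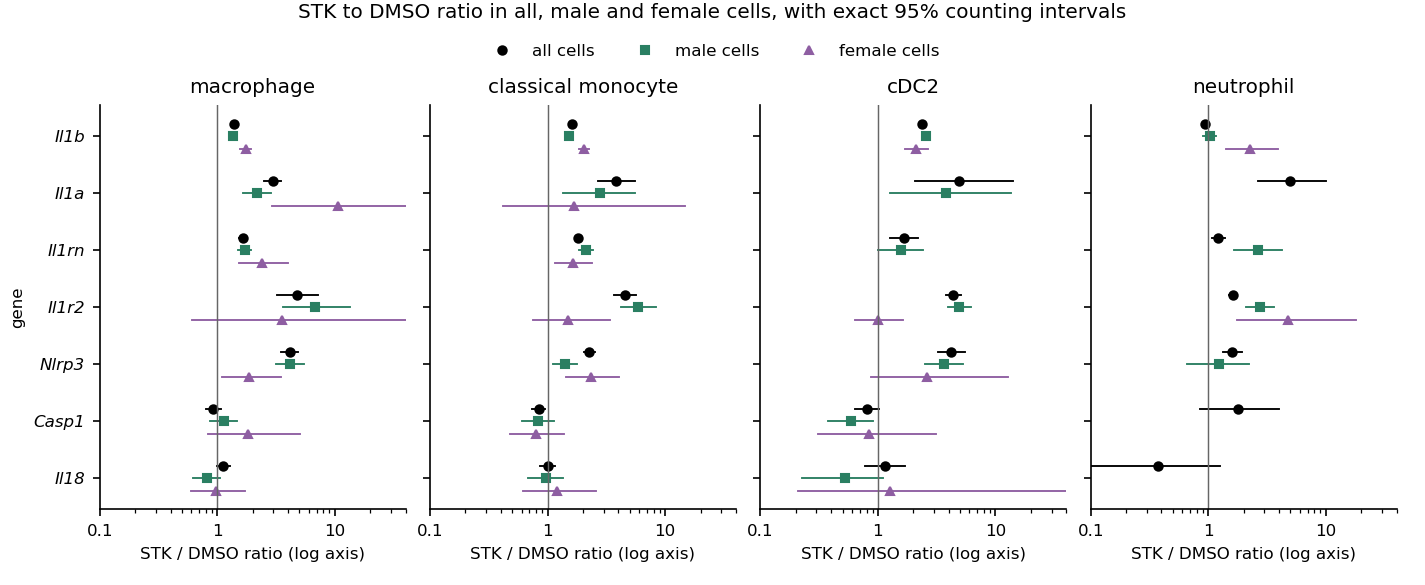
STK to DMSO ratio (log axis) of 7 genes in macrophages, classical monocytes, cDC2 and neutrophils, for all cells (black), male cells (green) and female cells (purple), with exact 95% counting intervals clipped at the axis ends; ratios under 10 UMIs or with a 0 are not drawn. The male ratios of Il1r2 are 6.73, 5.90, 4.91 and 2.76, each above 1, and the female cDC2 ratio is 0.996.

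Within single macrophages, Nlrp3 and Il1rn were found more often in cells with Il1b than in cells without. The intervals were apart only in the STK library. For this comparison cells were thinned to 2000 UMIs and shallower cells left out. Among macrophages with an Il1b UMI, 5.46% (3.77 to 7.62) under DMSO and 22.6% (19.5 to 25.9) under STK also held Nlrp3, against 2.12% (0.782 to 4.56) and 8.02% (4.90 to 12.2) of those without Il1b. Il1rn was found in 17.1% (14.1 to 20.4) and 26.7% (23.4 to 30.2) of macrophages with Il1b. In those without, it was found in 11.3% (7.86 to 15.6) and 11.8% (8.00 to 16.6). In cDC2 with Il1b, Il1r2 was found in 10.8% (6.17 to 17.2) and 42.5% (36.7 to 48.4), and in cDC2 without Il1b in 6.11% (2.67 to 11.7) and 23.5% (12.8 to 37.5). Agonist and decoy were thus often read from the same dendritic cell in the STK library. The intervals of cDC2 with and without Il1b overlapped in both libraries. Il1a and Casp1 were not found more often with Il1b. Il1a was in 10.8% (8.59 to 13.4) of STK macrophages with Il1b and 14.8% (10.5 to 19.9) of those without. Casp1 was in 11.7% (9.39 to 14.4) and 12.7% (8.71 to 17.6), so the intervals overlapped for both genes. Cells of 1 library are not replicates of a treatment, so these shares describe each library.

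In the wider pathway, signalling genes stayed near equal in monocytes and macrophages. Of 16 signalling adaptors and kinases, among them Myd88, Irak4 and Traf6, 0 were past 1.5-fold in classical monocytes and 1 was higher in macrophages. Their medians were -0.10 in both on the log2 scale against -0.03 and -0.02 for all genes there. Of all genes, 7.76% were higher and 10.9% lower in classical monocytes, and 8.11% and 10.6% in macrophages. Of the other inflammasome genes, 20 were measured in macrophages, where 0 were higher and 3 lower (Gsdme, Gbp5 and Txnip), and 20 in classical monocytes, where 0 were higher and 2 lower (Gbp5 and Txnip). Txnip, a thioredoxin-binding protein that can bind NLRP3, was at 192 and 70.4 CPM in macrophages, 218 and 61.5 in classical monocytes and 180 and 36.5 in cDC2. Gsdmd, the pore-forming substrate of caspase-1, was at 108 and 95.7 CPM in macrophages. Ninj1, which ruptures the membrane of dying cells, was at 56.8 and 102 CPM in cDC2. It was 1 of 3 genes higher there among 19 measured, where 9.05% of all genes were higher. Nlrp3 was the only inflammasome gene measured in macrophages that was past 1.5-fold higher. The counts of both lists in macrophages and classical monocytes lie near the shares of all genes and are not read as a result.

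Of 13 genes that IL-1 is known to induce, 12 were measured in macrophages, where 7 were higher and 1 lower, with a median of 0.96 on the log2 scale against -0.02 for all genes (8.11% of all genes were higher there). The hepatocyte or tumour gate had 8 higher and 2 lower of 11, with a median of 0.78, so higher counts were not limited to macrophages. In cDC1 2 were higher and 3 lower of 8, with a median of -0.45. In macrophages Cxcl1 and Cxcl2, chemokines that draw neutrophils, were at 10.7 and 84.3 CPM (7.89 times) and at 687 and 1508 CPM (2.2 times). Tnf was at 73.6 and 127 CPM in macrophages (1.72 times). In classical monocytes 4 of 11 were higher and 1 lower, with a median of 0.36, and Cxcl2 was 1.57 times higher. In cDC2 2 of 8 were higher and 0 lower, with a median of 0.29 against -0.06 for all genes, and Cxcl2 was 3.24 times higher. Neutrophils went their own way, with 0 of 9 higher, 2 lower and a median of -0.01 against 0.04, and with Cxcl3 at 488 and 185 CPM (ratio 0.380) and Cxcl2 at 11090 and 8815 CPM (0.795). Of 6 lymphocyte genes that IL-18 is known to induce, 2 were higher in NK cells (Csf2 and Il2ra) and 0 lower, with a median of 0.18 against -0.05. Ifng, the cytokine most closely tied to IL-18, was at 235 and 161 CPM in NK cells (ratio 0.683) and at 98.4 and 64.0 in CD8 T cells (ratio 0.651), where it was the 1 gene of the list that was lower. Other stress-linked transcripts differed in direction between classes: of 20 stress and early response genes, a list chosen after their values were seen, 2 were higher and 9 lower in macrophages, 2 and 10 in classical monocytes and 1 and 11 in cDC2, but 10 were higher and 1 lower in the hepatocyte or tumour gate. Their part in the differences of the members was not tested.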

How the data were processed

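The authors' processing gave, for each of the 2 libraries, a filtered matrix of whole UMI counts per gene and barcode, made with Cell Ranger 6.0.2 per the file headers. The build is GRCm38 per the submitters' processing notes, and the annotation release is not given in the sources used here. The lowest barcode of each deposited matrix has 500 UMIs. The labels give 1 library per group and the same batch, so counts were compared as ratios with no test across samples. The matrices hold 0 columns of other samples.

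From these counts, barcodes were kept from 500 UMIs and 250 genes upward and up to 10% mitochondrial UMIs (11152 and 10846 cells, 78065924 and 79681844 UMIs). A cell was gated to the class with the highest marker score, with at least 2 markers and a score of at least 0.15. A lead of 1.25 times was asked only over classes that are not close relatives. Monocytes, macrophages, Kupffer cells and cDC2 were treated as relatives, as were cDC1, cDC2 and migratory dendritic cells, and T with NK cells. Between relatives the highest score alone decided. These thresholds were set after looking at the marker scores. The members and gene lists were chosen with earlier results of these data known. UMIs were summed per class and library and divided by all UMIs of that class (CPM). Intervals are Poisson for levels, conditional binomial for ratios and Clopper-Pearson for shares, at 95%; 1 UMI is 1 captured molecule, not an independent animal. A pair of a gene and class entered with at least 10 UMIs over both libraries and 100 cells in each. For shares, cells were thinned to 1000 UMIs, and for co-detection to 2000 UMIs, without cells below that depth. Doublets were called with Scrublet at a score of 0.25 in both libraries, because its automatic threshold called none in the STK library: 396 cells (3.55%) and 425 cells (3.92%) were called, kept in the values above and left out in 1 alternative.

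All 10 members are named. From the pathway lists, up to 4 genes per class that were furthest from equal, reaching 50 CPM and 50 UMIs where they were higher, could be named with values, and likeness is the Pearson correlation of log2(CPM + 10) over 15 classes in 2 libraries; Hspa1a was chosen after its values were seen. Alternatives were TMM scaling, the mean over cells, a stricter gate, Leiden clusters, doublets, depth and mitochondrial limits, sex, the 1% of cells with the most UMIs and the count filter. The ratio and interval steps were tested on simulated data. Python 3.11.15, numpy 2.4.6, scipy 1.17.1, pandas 2.3.3, scanpy 1.11.5 and matplotlib 3.10.9 were used.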

Additional observations from a re-analysis of the deposited data

Results flagged for a closer look

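In 4 pairs of a gene and class the ratio of STK to DMSO lay on opposite sides of equal in female and male cells, with neither counting interval reaching equal; the difference between the sexes was not tested across animals. Il1b in migratory dendritic cells was 9.56 times higher in female cells and at a ratio of 0.735 in male cells. Il1b in CD4 T cells had a ratio of 0.107 in female and 5.87 in male cells. Il1b in the hepatocyte or tumour gate had a ratio of 1.46 in female and 0.585 in male cells. Il1r2 in T cells of no named subset had a ratio of 0.246 in female and 4.20 in male cells.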

How the results depend on the processing

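Of 126 pairs, 61 were at least 1.5 times higher and 15 lower. The first count was 37 of 77 pairs under a strict gate, 31 of 86 in male and 29 of 63 in female cells. The second was 6 under a strict gate, 9 of 111 with clusters, 20 of 86 in male and 7 of 63 in female cells and 4 of 86 without the 1% of cells with most UMIs. Shares over all genes under these alternatives are not given here. Ratios past 1.5-fold whose interval left out equal kept their direction in 54 of 54 under TMM, the 5% mitochondrial limit, at least 1000 UMIs and at least 1 UMI, and in 42 of 42 without top cells. They did so in 53 of 54 as a mean over cells, 52 of 53 without doublets, 47 of 49 with clusters, 32 of 36 under the strict gate, 36 of 44 in male and 28 of 32 in female cells. Past 1.5-fold in that direction were 31 of 44 in male and 23 of 32 in female cells, 42 of 49 with clusters, 31 of 36 under the strict gate, 47 of 54 as a mean over cells, 49 of 53 without doublets, 39 of 42 without top cells, 52 of 54 under TMM, 53 of 54 under each of the mitochondrial and depth limits and 54 of 54 at 1 UMI. Ratios that turned in male cells were Il1rn in non-classical monocytes (0.673) and migratory DC (0.903), Il1b in migratory DC (0.735), other T (0.733), B (0.436) and hepatocyte or tumour cells (0.585), Nlrp3 in the last (0.642) and Il18r1 in NK cells (1.15). In female cells Il1r2 in cDC2 (0.996) and other T cells (0.246) and Il1b in CD4 T (0.107) and NK cells (3.87) turned. Under the strict gate Il1r2 in CD4 T (0.983) and other T cells (0.570) and Il1b in NK (1.41) and hepatocyte or tumour cells (0.766) turned. With clusters Il1rn in CD8 T (2.15) and Il1b in NK cells (1.64) turned, without doublets Il1b in CD4 T cells (0.663), and as a mean over cells Il1b in hepatocyte or tumour cells (0.971). The cause was not tested. Depth limits Il1r1 and all counts of female DMSO cells. No paired analysis was possible because each group has 1 library.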
